A study of Mus musculus with 6 samples.

Results

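*Ccl2* and 9 other genes of secreted chemokines and cytokines (*Ccl7*, *Cxcl1*, *Cxcl5*, *Cxcl12*, *Csf1*, *Il6*, *Lif*, *Il33* and *Tslp*) were examined in cultured muscle satellite cells (MuSCs), the stem cells of skeletal muscle. These 10 genes, of 20654 in the count table, are known secreted factors of activated myogenic cells and were chosen by symbol with their counts in these same libraries already known. Their levels are therefore given as a description, and no p-value is printed for any of them. A call is given only beside the share of all genes called, with nothing read from it. Of the 10 genes, 4 (*Ccl2*, *Ccl7*, *Csf1* and *Cxcl12*) had enough counts for edgeR's filter (minimum count 10), and the other 6 are given as counts only.

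RNA was sequenced from 3 libraries labelled wild type, called control here, and 3 labelled *Piezo1* cKO, all of C57BL/6 background. *Piezo1* encodes a mechanosensitive ion channel. The study gives the controls of its RNA-seq as *Pax7* CreERT2/+, and names *Piezo1*+/+ with this allele for mice of other experiments. The cKO mice were *Piezo1* flox/flox; *Pax7* CreERT2/+. The tamoxifen-activated Cre is made from the *Pax7* locus, so that recombination is limited to cells in which *Pax7* is or was active. For its ex vivo work the study injected mice with tamoxifen on several days before cells were isolated. MuSCs of both groups were sorted as VCAM1+, CD31-, CD45- and Sca1- cells and grown for 3 d in a serum-containing growth medium with 1 µM 4-hydroxytamoxifen, and the age of the mice is not given in the sources used here. Each count is 1 unique molecular identifier, a tag that marks a cDNA molecule before PCR, read near the 3′ end of a transcript, so the level of a gene in CPM, counts scaled to a common library total, does not scale with transcript length. The depth of control 1 to 3 was 740936, 931168 and 891531 counts, against 810096, 726378 and 769295 for *Piezo1* cKO 1 to 3. A gene at the floor of 3 counts had from 3.35 to 4.31 CPM after TMM normalisation, edgeR's correction for library composition. Floors and the exact intervals of summed counts cover counting error only, whereas the intervals of log2 fold changes also include the spread between libraries.

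Chemokines are small secreted proteins that bind receptors on leukocytes and other cells and direct their migration. CCL2 and CCL7 attract monocytes through the receptor CCR2, CXCL12 acts through CXCR4, CXCL1 and CXCL5 attract neutrophils through CXCR2, and CSF1 sustains macrophages through its receptor CSF1R. IL-6 and LIF signal through the shared receptor subunit gp130 to JAK kinases and STAT factors, whereas IL-33 and TSLP are cytokines released at tissue barriers and sites of injury. In injured muscle, signals of this kind recruit monocytes and macrophages to the regenerating fibres.

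*Piezo1* itself gave 11, 5 and 6 counts (control 1 to 3) against 7, 12 and 9 (*Piezo1* cKO 1 to 3). The groups overlapped and the libraries labelled *Piezo1* cKO did not have less of the targeted gene, so the groups are given as labelled. The study assessed the deletion by RT-qPCR of *Piezo1* and by the calcium response to a PIEZO1 agonist in such cells, which were not analysed here. Transcripts with and without the deleted exons are counted together, so these few counts do not measure how complete the deletion was. The labels do not say whether the 3 libraries of a group came from separate animals, so p-values and SDs measure the spread between these libraries, which may be partly technical.

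The sources of sequence used here hold a promoter for 6 of the 10 genes (RefSeq, GRCm38.p6, 250 bases before to 50 bases after a transcription start). The 250 bases before the start are shown for *Csf1* (chr3:107760470-107760719, minus strand) and *Cxcl12* (chr6:117168285-117168534, plus strand), the most abundant of the 10 genes, and windows of 60 bases are shown for *Il6* (chr5:30013045-30013104, plus strand) and *Cxcl1* (chr5:90891149-90891208, plus strand), which were near 0. All run 5′ to 3′ in the direction of transcription, and capitals mark a match to an NF-kB motif.
Csf1: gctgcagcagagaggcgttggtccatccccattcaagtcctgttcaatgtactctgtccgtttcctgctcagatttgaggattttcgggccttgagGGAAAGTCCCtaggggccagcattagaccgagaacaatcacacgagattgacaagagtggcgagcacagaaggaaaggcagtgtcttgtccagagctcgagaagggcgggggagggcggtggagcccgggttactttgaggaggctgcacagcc
Cxcl12: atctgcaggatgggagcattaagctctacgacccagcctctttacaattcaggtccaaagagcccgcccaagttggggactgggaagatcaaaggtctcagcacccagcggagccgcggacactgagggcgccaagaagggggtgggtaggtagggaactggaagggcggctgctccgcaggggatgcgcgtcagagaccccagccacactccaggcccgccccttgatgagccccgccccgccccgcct
Il6: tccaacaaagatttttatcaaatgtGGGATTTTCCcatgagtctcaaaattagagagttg
Cxcl1: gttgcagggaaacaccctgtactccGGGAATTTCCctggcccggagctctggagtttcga
NF-kB is a transcription factor family activated by inflammatory signals and known to drive many chemokine and cytokine genes. The letters searched on both strands were GGGA, then any base, then TTTCC, which 135 of 32544 promoters of this length (0.415%) hold. A match lay 154 bases before the start of *Csf1* (on the opposite strand), 44 bases before that of *Il6* and 71 bases before that of *Cxcl1*, and there was none in the promoters of *Cxcl12*, *Lif* and *Il33*. The AP-1 letters TGANTCA, present in 7.79% of promoters, occurred in those of *Il6* and *Lif*, and the letters TATAAA, present in 13.6%, in those of *Il33*. A match of letters is not evidence of binding. Promoters of *Ccl2*, *Ccl7*, *Cxcl5* and *Tslp* are not shown. Of the 3 genes with an NF-kB match, *Csf1* was abundant in these libraries, whereas *Il6* and *Cxcl1* were near 0.

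Among the monocyte chemokines, *Ccl2* gave 48, 33 and 47 counts (control 1 to 3) against 21, 17 and 14 (*Piezo1* cKO 1 to 3). Scaled to library size, these were 69.0, 36.8 and 55.5 CPM in control and 26.6, 22.5 and 18.6 CPM in *Piezo1* cKO. Every *Piezo1* cKO library lay below every control library, and control 2 was the closest to them. The means were 53.8 ± 16.2 CPM in control and 22.5 ± 4.03 CPM in *Piezo1* cKO (SD, n = 3 each), with a log2 fold change of -1.23 ± 0.27 (SE, 95% interval -1.75 to -0.70) or a level 2.34-fold lower. *Ccl2* ranked 5543rd by mean CPM among all genes listed, so it was a gene of middling abundance. Of the 8551 genes tested, 9 (0.105%) had a lower log2 fold change than *Ccl2*. This rank is a description only, since *Ccl2* was chosen with these values known. In bulk RNA, fewer cells that express a gene and less RNA per cell cannot be told apart.

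*Ccl7*, the neighbouring chemokine gene, gave 38, 21 and 23 counts (control 1 to 3) against 13, 13 and 8 (*Piezo1* cKO 1 to 3). In CPM these were 54.6, 23.4 and 27.2 in control and 16.5, 17.2 and 10.6 in *Piezo1* cKO. The groups did not overlap, but control 1 stood well above the other two control libraries. The means were 35.1 ± 17.1 CPM in control and 14.7 ± 3.61 CPM in *Piezo1* cKO (SD, n = 3 each), with a log2 fold change of -1.20 ± 0.33 (SE, 95% interval -1.84 to -0.55) or 2.30-fold lower. Without control 1, the log2 fold change of *Ccl7* was -0.76, and that of *Ccl2* was -1.02.

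**Figure D1:**
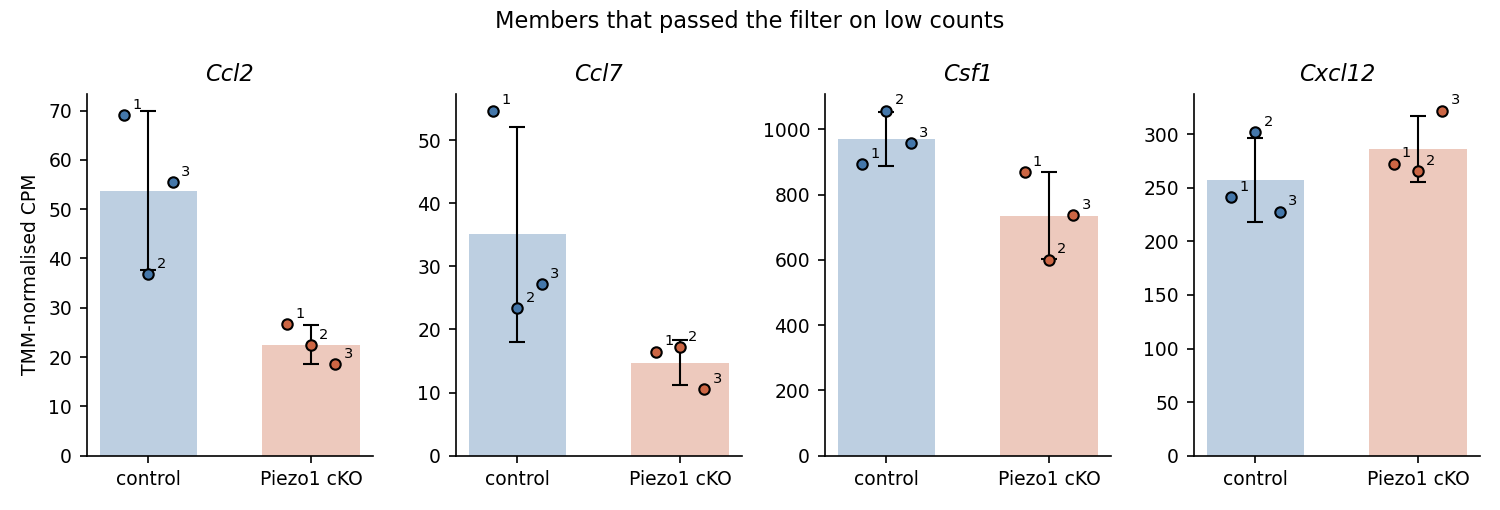
TMM-normalised CPM (y axis, starting at 0) of *Ccl2*, *Ccl7*, *Csf1* and *Cxcl12* in the control and *Piezo1* cKO libraries (x axis), where points are libraries with their replicate numbers, bars are means and whiskers are 1 SD (n = 3). All 3 *Piezo1* cKO libraries lie below all 3 control libraries for *Ccl2*, *Ccl7* and *Csf1*, whereas the *Cxcl12* groups overlap.

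*Csf1*, the macrophage growth factor gene on chromosome 3 (107741048 to 107760469, minus strand), was by far the most abundant of the 10 genes and ranked 121st of all genes listed. It gave 622, 948 and 812 counts (control 1 to 3) against 685, 455 and 557 (*Piezo1* cKO 1 to 3), which were 894, 1057 and 959 CPM in control and 868, 601 and 738 CPM in *Piezo1* cKO. The groups did not overlap after scaling, although *Piezo1* cKO 1 lay just below control 1, and the unscaled counts did overlap. The means were 970 ± 82.1 CPM and 736 ± 134 CPM (SD, n = 3 each), with a log2 fold change of -0.40 ± 0.14 (SE, 95% interval -0.68 to -0.12). Among all genes tested, 6.53% had a lower log2 fold change.

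*Cxcl12*, whose product retains and guides CXCR4-bearing cells, lies on chromosome 6 (117168535 to 117181367, plus strand). It gave 168, 271 and 193 counts (control 1 to 3) against 215, 201 and 243 (*Piezo1* cKO 1 to 3), or 242, 302 and 228 CPM in control and 273, 265 and 322 CPM in *Piezo1* cKO. The groups overlapped. The means were 257 ± 39.6 CPM and 287 ± 30.8 CPM (SD, n = 3 each), with a log2 fold change of 0.15 ± 0.14 (SE, 95% interval -0.12 to 0.42), and 71.0% of the genes tested had a lower one.

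Of the 4 genes that passed the filter, *Ccl2* was the 1 called at an adjusted p under 0.05 in edgeR (quasi-likelihood test, Benjamini-Hochberg adjustment over all genes tested), beside 67 of 8551 genes called in all (0.784%), of which 27 were lower (0.316%) and 40 higher (0.468%) in *Piezo1* cKO. The call depended on the libraries and the tool. It was made in 3 of the 6 fits with 1 library left out, and lost without control 1, *Piezo1* cKO 2 or *Piezo1* cKO 3. DESeq2 with default settings, the tool of the study's methods, gave *Ccl2* no adjusted p, and DESeq2 with filtering for 0.05 did not call it. Lower levels in *Piezo1* cKO with no overlap were found for 3 of the 4 genes and for 8.31% of all genes tested, while 8.20% were higher with no overlap, 16.5% in either direction. Since this contrast was known when the genes were chosen, nothing is read from these counts about the genes as a group. For the same reason, neither the call of *Ccl2* nor its recurrence across fits is evidence of a difference. Their median log2 fold change was -0.80, and that of all genes tested was 0.00.

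*Ccl2* and *Ccl7* lie beside each other on chromosome 11 of GRCm38, *Ccl2* from 82035571 to 82037453 and *Ccl7* from 82045712 to 82047525, both on the plus strand and 8258 bp apart. Further along the same cluster are *Ccl11* (82057823 to 82062955), *Ccl12* (82101845 to 82103400), *Ccl8* (82115185 to 82116799) and, on the minus strand, *Ccl1* (82176657 to 82305690), all genes of CC chemokines. *Ccl8* gave 6, 0 and 4 counts (control 1 to 3) against 0, 1 and 2 (*Piezo1* cKO 1 to 3). *Ccl11* had 0, 1 and 2 counts in control and 0 in every *Piezo1* cKO library, *Ccl1* had 1 count in control 1 and 0 elsewhere, and *Ccl12* was not analysed here. Of the genes of the cluster analysed, nearly all transcripts were thus from *Ccl2* and *Ccl7*, and the others were too low at this depth for a comparison. The treatment of reads shared between similar genes is not stated, and the levels of related CC chemokines are uncertain to that extent.

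Across the 6 libraries the log2 CPM (prior count 2) of *Ccl2* and *Ccl7* had a Pearson r of 0.94. This is a description over 6 points that fall into the same groups, with no p, and 74 of the 8550 other genes tested (0.865%) had an r above 0.9 with *Ccl2*, *Ccl7* being the 28th. The count of *Ccl2* was 1.26, 1.57 and 2.04 times that of *Ccl7* in control libraries 1 to 3 and 1.62, 1.31 and 1.75 times in *Piezo1* cKO libraries 1 to 3. The ranges of this ratio overlapped between the groups. *Csf1* had an r of 0.64 with *Ccl2* and 0.47 with *Ccl7*, and *Cxcl12* had an r of -0.75 with *Ccl2*, -0.70 with *Ccl7* and -0.15 with *Csf1*.

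**Figure D2:**
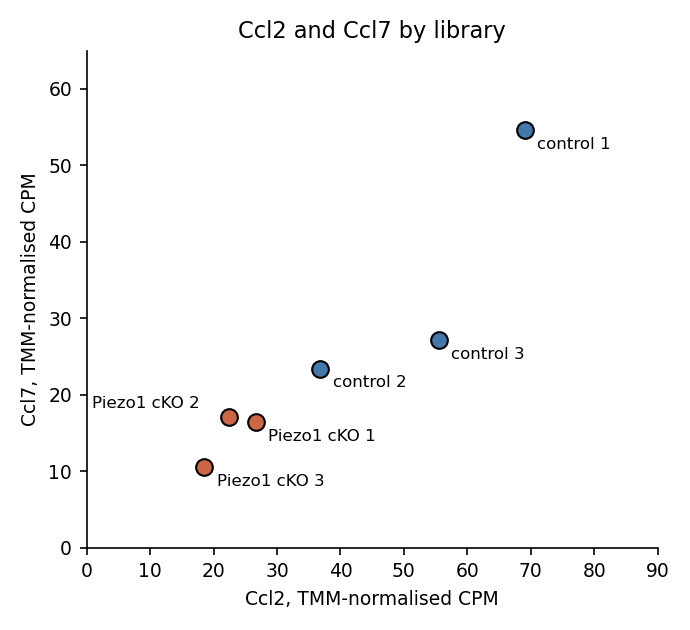
TMM-normalised CPM of *Ccl7* (y axis) against *Ccl2* (x axis), with 1 point for each library in blue for control and orange for *Piezo1* cKO. Control 1 is highest for both genes at 69.0 and 54.6 CPM, and *Piezo1* cKO 3 is lowest for both at 18.6 and 10.6 CPM.

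The genes with the pattern most like *Ccl2* over the 6 libraries were *Mrpl18* (r = 0.985), *Anp32a* (r = 0.984), *Spr* (r = 0.983), *Cyb5a* (r = 0.982) and *Orc6* (r = 0.979). *Mrpl18* encodes a mitochondrial ribosomal protein, *Spr* an enzyme of tetrahydrobiopterin synthesis, *Cyb5a* a cytochrome b5 and *Orc6* a subunit of the origin recognition complex. *Anp32a* gave 68, 57 and 73 counts (control 1 to 3) against 39, 36 and 25 (*Piezo1* cKO 1 to 3), a log2 fold change of -0.91 ± 0.21 (SE). The other four had log2 fold changes between -0.28 (*Mrpl18*) and -0.44 (*Orc6*), so their differences were smaller than that of *Ccl2* although their order of libraries was similar. The genes most opposite to *Ccl2* were *Cep120* (r = -0.998), *Clcn4* (r = -0.991), *Tgfb1i1* (r = -0.977), *Dnlz* (r = -0.977) and *Igsf11* (r = -0.974), with log2 fold changes from 0.35 (*Clcn4*) to 0.77 (*Cep120*). These values are the extremes of 8550 genes compared over only 6 libraries and are given as a description.

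Added over all 10 genes, the level was 1271, 1436 and 1282 CPM in control libraries 1 to 3 and 1199, 921 and 1104 CPM in *Piezo1* cKO libraries 1 to 3. *Csf1* set most of this sum, with 70.4%, 73.7% and 74.8% of the counts of the 10 genes in control and 72.4%, 65.3% and 66.9% in *Piezo1* cKO. *Cxcl12* held 19.0%, 21.1% and 17.8% in control and 22.7%, 28.8% and 29.2% in *Piezo1* cKO. The sum, like *Csf1*, did not overlap between the groups.

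The 6 genes under the filter were at or near the floor of 3 counts. Of the neutrophil chemokines, *Cxcl1* (chr5:90891241-90893115) gave 2, 5 and 1 counts (control 1 to 3) against 2, 0 and 2 (*Piezo1* cKO 1 to 3). The summed counts of 8 and 4 give a *Piezo1* cKO to control ratio of 0.530 with an exact 95% interval from 0.117 to 1.98, which includes no difference. *Cxcl5* (chr5:90759360-90761624) had 3 counts in control 1 and 0 in the other five libraries, and no fold is given. Neither gene could be compared at this depth.

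Of the gp130 cytokines, *Il6* (chr5:30013114-30019981) gave 1, 0 and 0 counts (control 1 to 3) against 0, 1 and 1 (*Piezo1* cKO 1 to 3), and no fold is given. *Lif* (chr11:4257557-4272514) gave 1, 5 and 3 counts (control 1 to 3) against 2, 0 and 3 (*Piezo1* cKO 1 to 3), with a ratio of summed counts of 0.589 (exact 95% interval 0.155 to 1.96). These 2 ligands thus left only a few molecules in each library.

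Of the barrier cytokines, *Il33* (chr19:29925114-29960718) gave 1, 3 and 1 counts (control 1 to 3) against 4, 2 and 2 (*Piezo1* cKO 1 to 3), with a ratio of 1.70 (exact 95% interval 0.489 to 6.59). *Tslp* gave 0, 1 and 6 counts (control 1 to 3) against 4, 8 and 3 (*Piezo1* cKO 1 to 3), with a ratio of 2.27 (exact 95% interval 0.872 to 6.59). Control 3 had more *Tslp* counts than 2 of the *Piezo1* cKO libraries, and both groups overlapped for these 2 genes. Without control 3, the log2 ratio of summed *Tslp* counts moved from 1.18 to 3.38.

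**Figure D3:**
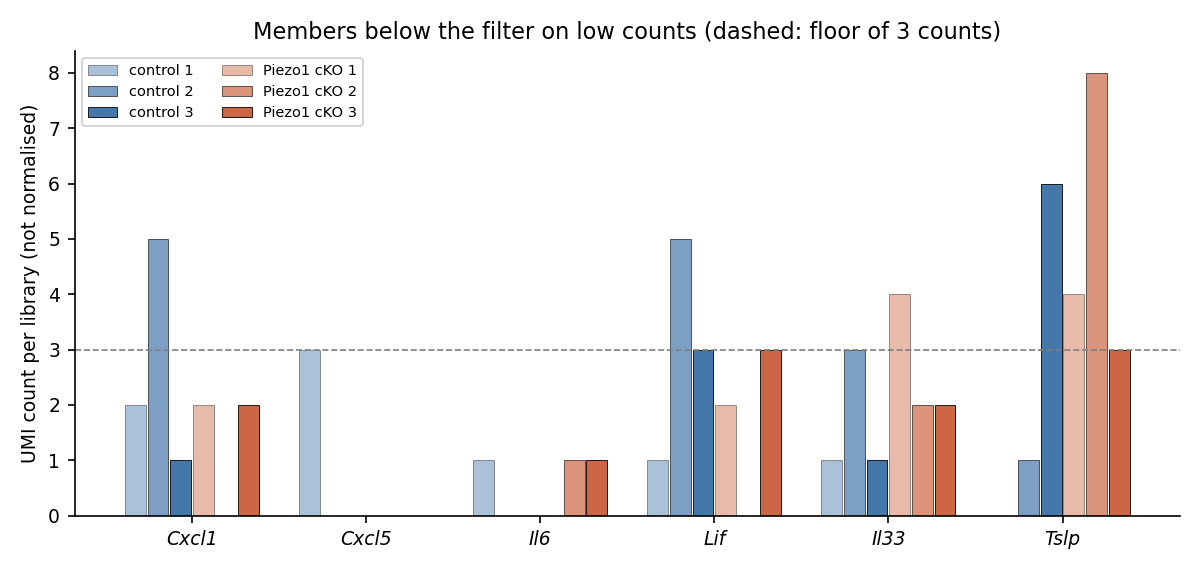
Counts per library, not normalised (y axis), of the 6 genes under the filter (x axis), with 1 bar for each library in blue for control and orange for *Piezo1* cKO and a dashed line at the floor of 3 counts. The highest bar is *Tslp* in *Piezo1* cKO 2 with 8 counts, *Cxcl5* has counts in control 1 alone, and no gene separates the groups.

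The receptors of these ligands were mostly low in the same cells. Of 17 receptor genes, 11 were listed and 2 passed the filter, and 0 were called (edgeR, also 0 at an unadjusted p under 0.05). Over all genes tested, 1019 of 8551 (11.9%) had an unadjusted p under 0.05, the share to set beside such a count in this list and those that follow. *Ackr3*, a scavenging receptor of CXCL12, had 161 ± 9.89 CPM in control and 168 ± 28.7 CPM in *Piezo1* cKO (SD, n = 3 each), with a log2 fold change of 0.07 ± 0.15 (SE). *Il6st*, which encodes gp130, had 75.5 ± 5.16 and 67.1 ± 13.1 CPM (SD, n = 3 each), with a log2 fold change of -0.18 ± 0.19 (SE). *Il1rl1*, which encodes the IL-33 receptor ST2, gave 11, 4 and 17 counts (control 1 to 3) against 2, 2 and 4 (*Piezo1* cKO 1 to 3), with an overlap at 4 counts. *Csf1r*, the receptor gene for CSF1, had 2, 1 and 1 counts in control and 0 in every *Piezo1* cKO library, and *Cxcr4* gave 6, 9 and 6 counts (control 1 to 3) against 6, 13 and 11 (*Piezo1* cKO 1 to 3). *Il1rl1* and *Csf1r* were named after their values were seen.

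Other ligands were few as well. Of 30 other chemokine genes, 18 were listed and 2 were tested, with 0 called (edgeR, 0 at an unadjusted p under 0.05). *Cx3cl1*, which encodes the membrane-bound chemokine fractalkine, had 47.2 ± 22.7 CPM in control and 47.7 ± 4.77 CPM in *Piezo1* cKO (SD, n = 3 each), and the log2 fold change of *Ccl25* was 0.27 ± 0.37 (SE). *Ccl5*, a T cell chemokine gene under the filter, gave 5, 9 and 6 counts (control 1 to 3) against 5, 8 and 10 (*Piezo1* cKO 1 to 3). Of 36 other cytokine genes, 23 were listed and 4 tested, with 0 called (edgeR, 2 at an unadjusted p under 0.05). All 4 had a log2 fold change below 0, with a median of -0.46.

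*Il34* encodes the second ligand of CSF1R, and it gave 50, 64 and 49 counts (control 1 to 3) against 33, 34 and 33 (*Piezo1* cKO 1 to 3). Its log2 fold change was -0.62 ± 0.22 (SE) and the groups did not overlap, but it did not pass the test (adjusted p = 0.174, edgeR). *Mif*, a broadly expressed cytokine gene, had 1371 ± 19.0 CPM in control and 1108 ± 215 CPM in *Piezo1* cKO (SD, n = 3 each), with a log2 fold change of -0.31 (adjusted p = 0.399, edgeR). The gp130 cytokine gene *Clcf1* had a log2 fold change of -0.62 (adjusted p = 0.452, edgeR). In the opposite direction, *Il11*, another gp130 cytokine and chosen after its values were seen, gave 5, 2 and 1 counts (control 1 to 3) against 7, 18 and 16 (*Piezo1* cKO 1 to 3). It did not pass the filter, and without the filter it was among the genes called.

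Genes that control or follow these cytokines showed few calls. For the NF-kB pathway and its targets, 20 of 30 genes were tested and 0 were called (edgeR, 3 at an unadjusted p under 0.05), with 8 log2 fold changes above 0, 12 below and a median of -0.05. *Sod2*, a mitochondrial dismutase gene and NF-kB target, had a log2 fold change of -0.02 ± 0.14 (SE), and *Rela*, the gene of the NF-kB subunit p65, one of 0.11 ± 0.15 (SE). *Nfkbia*, which encodes the inhibitor I-kappa-B-alpha and is itself an NF-kB target, gave 119, 150 and 131 counts (control 1 to 3) against 99, 93 and 105 (*Piezo1* cKO 1 to 3), a log2 fold change of -0.35 ± 0.15 (SE, adjusted p = 0.320, edgeR). Its groups did not overlap, and it did not pass the test. The others at an unadjusted p under 0.05, *Nfkb2* and *Traf1*, were named after their values were seen and were also lower in *Piezo1* cKO. Their log2 fold changes were -0.51 and -0.93 (adjusted p = 0.233 and 0.251, edgeR). The groups overlapped for *Traf1* and did not for *Nfkb2*.

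In JAK-STAT signalling and its targets, 16 of 23 genes were tested and 1 was called (edgeR, 4 at an unadjusted p under 0.05), *Jak2*, the gene of a kinase bound to many cytokine receptors. *Jak2* gave 8, 7 and 9 counts (control 1 to 3) against 22, 15 and 24 (*Piezo1* cKO 1 to 3), and every *Piezo1* cKO library exceeded every control library. Its level rose to 26.5 ± 6.11 CPM from 9.98 ± 1.93 CPM in control (SD, n = 3 each), with a log2 fold change of 1.41 ± 0.36 (SE, adjusted p = 0.0294, edgeR). The call held in 2 of the 6 fits with 1 library left out. It was lost without control 2 and without each of the *Piezo1* cKO libraries. The adjusted p was 0.0747 in limma-voom, 0.0657 with thinned libraries (edgeR) and 0.0814 with the replicate block (edgeR). DESeq2 gave *Jak2* no adjusted p with default settings and one of 0.583 with filtering for 0.05. The most abundant genes of this list, *Cebpb* with a log2 fold change of -0.21 ± 0.13 (SE) and *Junb* with 0.22 ± 0.14 (SE), did not pass the test. *Socs1*, a feedback inhibitor of JAK kinases chosen after its values were seen, gave 29, 37 and 20 counts (control 1 to 3) against 15, 14 and 11 (*Piezo1* cKO 1 to 3), with no overlap, a log2 fold change of -1.02 ± 0.30 (SE) and an adjusted p of 0.0930 (edgeR). *Socs2*, *Socs3* and *Tyk2*, named likewise, were higher in *Piezo1* cKO with no overlap in CPM. The log2 fold changes of *Socs2* and *Tyk2* were 0.39 and 0.75 (adjusted p = 0.342 and 0.391, edgeR). *Socs3*, under the filter, gave 1, 2 and 2 counts (control 1 to 3) against 4, 4 and 2 (*Piezo1* cKO 1 to 3).

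Proteins that bind the 3′ ends of cytokine mRNAs govern their decay, and of 11 such genes 8 were tested and 0 called (edgeR, 1 at an unadjusted p under 0.05), with a median log2 fold change of -0.04. *Elavl1*, the gene of a stabilising factor, had a log2 fold change of -0.07 ± 0.14 (SE), *Hnrnpd* one of 0.13 ± 0.15 (SE) and *Tial1* one of -0.38 ± 0.21 (SE). The gene at an unadjusted p under 0.05 was *Zfp36l2*, named after its values were seen. It gave 13, 22 and 21 counts (control 1 to 3) against 41, 24 and 28 (*Piezo1* cKO 1 to 3), with no overlap. Its log2 fold change was 0.81 ± 0.28 (SE, adjusted p = 0.162, edgeR). Calcineurin and NFAT link calcium influx to transcription, and 12 of 15 genes of this pathway were tested with 0 called (edgeR, 2 at an unadjusted p under 0.05) and a median of 0.08.

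**Figure D4:**
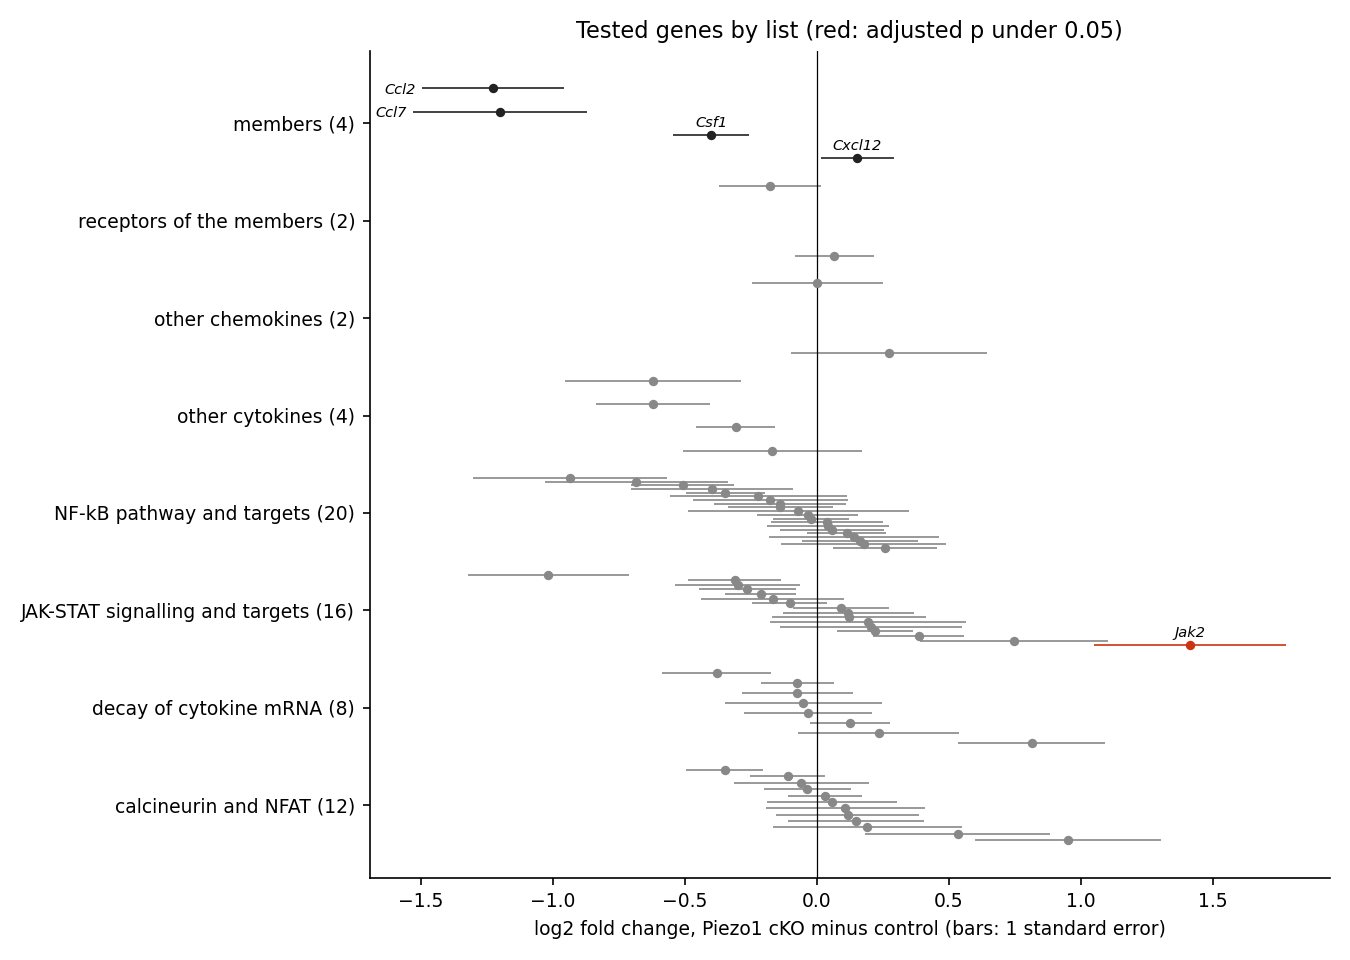
Log2 fold change, *Piezo1* cKO minus control (x axis, bars are 1 standard error), of the tested genes of the ligand, receptor, signalling and mRNA decay lists, without cell type markers such as *Dcn* (y axis, number of tested genes in brackets), with the 4 secreted-factor genes in black, not coloured by any test, and genes called at an adjusted p under 0.05 in red. *Jak2*, at 1.41, is the single red point, and *Ccl2* and *Ccl7*, at -1.23 and -1.20, lie left of all other genes shown.

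The cultures carried the markers of myoblasts. Of 10 myogenic markers, 9 were tested and 0 called (edgeR, 3 at an unadjusted p under 0.05), and the acetylcholine receptor gene *Chrna1* was the most abundant, with 1684 ± 241 CPM in control and 1475 ± 246 CPM in *Piezo1* cKO (SD, n = 3 each). The myogenic factor gene *Myod1* had a log2 fold change of -0.15 ± 0.15 (SE) and the desmin gene *Des* one of 0.10 ± 0.14 (SE). The 3 at an unadjusted p under 0.05, named after their values were seen, went both ways with no overlap. Their log2 fold changes were -0.53 for *Sdc4*, -0.45 for *Vcam1* and 0.53 for *Cdh15* (adjusted p = 0.0609, 0.185 and 0.118, edgeR). *Pax7*, the marker of quiescent and activated MuSCs, gave 10, 26 and 19 counts (control 1 to 3) against 16, 5 and 12 (*Piezo1* cKO 1 to 3), with overlap. The differentiation factor gene *Myog*, named along with *Pax7* after the values were seen, gave 40, 3 and 45 counts (control 1 to 3) against 63, 203 and 92 (*Piezo1* cKO 1 to 3). Its log2 fold change was 2.09 (adjusted p = 0.468, edgeR) with no overlap, in the direction opposite to *Ccl2*, and its part in the levels of the chemokines was not tested.

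Macrophages and fibro-adipogenic progenitors, the mesenchymal cells of muscle, also make these factors, so their markers are given beside the results. The sort for CD45-, CD31- and Sca1- cells is a gate that removes leukocytes, endothelial cells and Sca1+ fibro-adipogenic progenitors. Of 16 macrophage and leukocyte markers, 9 were listed and 2 tested, with 0 called (edgeR, 1 at an unadjusted p under 0.05). The summed level was 87.7, 85.9 and 93.3 CPM in control and 108, 88.5 and 99.4 CPM in *Piezo1* cKO libraries 1 to 3, and *Laptm5* was the most abundant, at 55.6 CPM over all libraries, followed by *Cd14* and *Cd68*. *Lyz2*, abundant in macrophages, had 11 counts in control 2, 1 count in *Piezo1* cKO 1 and 0 elsewhere, and *Csf1r* and *Ctss* had at most 2 counts in any library. *Ptprc* and *Adgre1* were not analysed here. The part of these cells in the levels of the chemokines was not tested.

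Of 13 fibro-adipogenic markers, 11 were listed and 5 tested, and 1 was called (edgeR, 3 at an unadjusted p under 0.05), *Dcn*, which encodes the matrix proteoglycan decorin. *Dcn* gave 18, 23 and 37 counts (control 1 to 3) against 8, 5 and 3 (*Piezo1* cKO 1 to 3), with no overlap. Its level fell to 6.91 ± 3.09 CPM from 31.7 ± 10.3 CPM in control (SD, n = 3 each), with a log2 fold change of -2.17 ± 0.38 (SE, adjusted p = 0.000387, edgeR), and it was called in 6 of the 6 fits with 1 library left out. DESeq2 gave *Dcn* no adjusted p with default settings and one of 0.0455 with filtering for 0.05. *Pdgfra*, a defining marker of these cells, gave 4, 3 and 8 counts (control 1 to 3) against 1, 1 and 3 (*Piezo1* cKO 1 to 3), and *Pi16* had 0 in every library. *Ly6a*, which encodes Sca1, gave 2, 2 and 3 counts (control 1 to 3) against 5, 8 and 9 (*Piezo1* cKO 1 to 3), with no overlap, while the groups overlapped for *Pdgfra* in CPM. The summed level of the list was 498, 453 and 773 CPM in control and 615, 696 and 709 CPM in *Piezo1* cKO, set mostly by *Gsn* (244 CPM over all libraries) and *Col3a1*, whose log2 fold changes of 0.17 and 0.41 did not pass the test. *Col1a2*, the next most abundant, had a log2 fold change of 0.85 (adjusted p = 0.125, edgeR). The low markers gave summed counts of 10 in control and 1 in *Piezo1* cKO for *Mfap5*, 5 and 2 for *Lum*, and 25 and 13 for *Col1a1*, all under the filter and with overlap. Members of the list thus differed in both directions, and the part of these cells in the *Ccl2* and *Ccl7* levels was not tested.

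Of 10 endothelial markers, 8 were listed and 0 passed the filter. Their summed level was 18.7, 8.92 and 8.27 CPM in control and 15.2, 9.25 and 22.5 CPM in *Piezo1* cKO libraries 1 to 3, *Tek* was the most abundant, *Pecam1* had at most 2 counts and *Flt1* had 0 in every library. Of 8 mural cell markers, 7 were listed and 2 tested, with 0 called (edgeR, 1 at an unadjusted p under 0.05). Their summed level was 244, 109 and 486 CPM in control and 409, 573 and 431 CPM in *Piezo1* cKO libraries 1 to 3 and was mostly that of *Acta2*, the smooth muscle actin gene, whose reads can be shared with other actin genes. *Cspg4* had a log2 fold change of 0.76 (adjusted p = 0.143, edgeR).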

How the data were processed

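MuSC cultures of 3 control and 3 *Piezo1* cKO libraries, grouped by their labels, were analysed. The authors primed cDNA from total RNA with oligo-dT that carried barcodes, amplified it by PCR and deposited counts of unique molecular identifiers per gene, not normalised. The submitters' processing notes name GRCm38, STAR 2.7.9a, featureCounts 2.0.1 and UMI-tools 1.1.1. Strand and multiply mapped read settings are not given in the sources used here.

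Counts were analysed in R 4.3.3 with edgeR 4.0.16 (filter with minimum count 10, TMM, robust quasi-likelihood fit on group, Benjamini-Hochberg adjustment over 8551 genes, threshold 0.05). The 95% intervals of log2 fold changes assume a normal error, with the SE taken as the log2 fold change over the square root of edgeR's F. The genes and lists were chosen with earlier results of these data known. Named were the 10 genes, *Piezo1*, called list genes, the most abundant genes of each list up to 3, and the 5 most and least like *Ccl2*, and other genes are defining cell type markers or are marked where named. The most abundant genes of the calcineurin and NFAT list are not reported here. The fit was tested on simulated data, with changes placed only in genes of higher mean count than *Ccl2*, *Ccl7*, *Jak2* and *Dcn*. Recovery of changes at the depth of these genes was not tested.

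The alternatives tried were limma-voom (limma 3.58.1), DESeq2 1.42.0 at its defaults, DESeq2 size factors, total counts only, no filter, at least 10 counts in every library, the replicate number as a block, thinned libraries, an adjusted p under 0.1 and each library left out. DESeq2 with its filtering set for 0.05 was added after the data were seen. Depth was 726378 to 931168 counts a library.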

Additional observations from a re-analysis of the deposited data

How the results depend on the processing

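The log2 fold changes of *Ccl2*, *Ccl7*, *Csf1* and *Cxcl12* kept their signs in every alternative that gave a value. With 1 library left out they ranged from -1.44 to -1.02 for *Ccl2*, -1.42 to -0.76 for *Ccl7*, -0.54 to -0.28 for *Csf1* and 0.058 to 0.29 for *Cxcl12*, the lowest and highest values of any alternative. The calls were less stable, and the causes were not tested. Against 67 genes called in all, DESeq2 with default settings called 28, of which 13 were higher, and DESeq2 with filtering for 0.05, computed after the data were seen, 32. No filter gave 129, an adjusted p under 0.1 gave 124, and leaving out 1 library gave 6 to 174, the fewest without *Piezo1* cKO 2 and the most without *Piezo1* cKO 1. Total counts only called 63, with 71.4% higher against 59.7%, and moved the median of all genes from 0.002 to 0.073. Against 1 of the secreted-factor genes called, both DESeq2 settings called 0, no filter and an adjusted p under 0.1 called 2, and leaving out 1 library gave 0 to 2. *Ccl2* was called in 10 of 15 alternatives, and DESeq2 with default settings gave it no adjusted p. Nothing is read from this number, since *Ccl2* was chosen with these data known. Against 2 list genes called (*Jak2* and *Dcn*), DESeq2 called 0 (both without an adjusted p) and 1 with filtering for 0.05, limma-voom 1, thinned libraries 1, no filter 6, an adjusted p under 0.1 4, and leaving out 1 library 1 to 8. *Dcn* was called in 13 of 15 alternatives and *Jak2* in 5. Of the 5 genes most like *Ccl2*, 3 were among the 13 with a Spearman rho of 1. Of the genes under the filter, the log2 ratio of summed counts moved from 1.18 to 3.38 for *Tslp* without control 3, from -0.92 to -0.16 for *Cxcl1* and from 0.76 to 1.42 for *Il33* without control 2, and from -0.76 to -1.51 for *Lif* without *Piezo1* cKO 3.

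Deviations of same-numbered libraries correlated at -0.143, -0.203 and 0.0121, so the numbers do not pair the libraries. With the replicate block, 46 genes were called, the log2 fold change of *Ccl2* was -1.23 and still called, that of *Ccl7* -1.20, *Csf1* -0.41 and *Cxcl12* 0.16, and the list genes called were *Dcn* and *Col1a2*, with an adjusted p of 0.0814 for *Jak2* (edgeR). For *Jak2*, DESeq2 with filtering for 0.05 gave an adjusted p of 0.583. Under at least 10 counts in every library, *Ccl7*, *Jak2* and *Dcn* gave no value. Depth of 726378 to 931168 counts left 6 of the 10 genes under the filter.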
